A study of Mus musculus with 4 samples.

Results

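Purinergic and adenosine signalling was followed through 10 genes that cover the path of extracellular ATP: the release channel gene Panx1, the surface nucleotidase genes Entpd1, Entpd2, Entpd3 and Nt5e, the nucleotide receptor genes P2rx4, P2rx7, P2ry2 and P2ry6, and the adenosine receptor gene Adora2b. They were matched by symbol among the 22869 gene symbols of the deposited tables, and all 10 were found. P2rx7 has 4 RefSeq transcripts there and the others 1 each. For P2rx7 the values are those of the transcript with the most counts on average.

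RNA was sequenced from primary pancreatic ductal cells of adult C57BL/6 mice. In 2 libraries, labelled Hhex knockout, the cells carried floxed Hhex alleles (HhexL/L) and Sox9CreERT2, a tamoxifen-inducible Cre under the Sox9 promoter. In the 2 control libraries, from littermates, the cells carried the floxed alleles alone. Cells of both groups received 500 nM 4-hydroxytamoxifen, which activates the Cre, in culture for 4 days. No group carried the Cre without floxed alleles, so an effect of the Cre and an effect of Hhex loss cannot be told apart. Hhex encodes a homeodomain protein needed in early liver and pancreas development.

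Cells release ATP through channels such as pannexin 1 or in vesicles. Surface NTPDases, such as the products of Entpd1, Entpd2 and Entpd3, remove phosphates from ATP and ADP. The 5′-nucleotidase CD73, the product of Nt5e, turns the resulting AMP into adenosine. ATP opens P2X channels, ATP and UTP activate the G protein-coupled receptor P2Y2, UDP activates P2Y6, and adenosine acts on its own receptors, of which A2B raises cAMP. In pancreatic ducts, luminal ATP and adenosine are known stimuli of chloride and bicarbonate secretion.

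The libraries held 39582625 and 30835777 counts in the labelled knockouts and 25513289 and 25257778 in the controls. The targeted gene was not lower: Hhex had a level of 23.6 and 39.0 CPM (the usual depth-scaled count, here over TMM-scaled library totals) in the labelled knockouts, against 24.8 and 17.7 CPM in the controls, with an edgeR adjusted p of 0.742. The labels do not say which exons were floxed, and RNA from undeleted exons is counted too. The Hhex level therefore does not bear out the label and cannot test it in either direction. Labelled knockout replicate 2 was the library with Xist, at 304 CPM against at most 1.75 CPM in the other 3, so sex and group are not balanced. The labelled knockouts also differed more from each other (SD of the log2 CPM difference 0.728) than labelled knockout replicate 1 differed from control replicate 2 (0.563). The largest difference was between labelled knockout replicate 1 and control replicate 1 (0.799), so these distances do not single out replicate 2. Because of its Xist level, values without labelled knockout replicate 2 are given beside the results of the 10 genes. The ductal keratin genes Krt18 and Krt8 were abundant in every library, Krt18 at 9242 and 6234 CPM in the labelled knockouts and 6531 and 8094 CPM in the controls. They are the highest of 12 listed ductal markers and do not speak for that list, of which 6 had a log2 fold change below 0. Tm4sf4 was lower, at 30.2 and 29.7 CPM in the labelled knockouts and 114 and 79.2 CPM in the controls (edgeR adjusted p = 0.0421). Sox9 was higher, at 52.3 and 44.3 CPM in the labelled knockouts and 18.0 and 21.4 CPM in the controls (edgeR adjusted p = 0.0521).

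None of the purinergic genes passed the test between groups. Of the 10, 9 passed the filter on low counts and 0 had an edgeR adjusted p under 0.05, where 0.151% of the 15892 genes tested did. DESeq2, the edgeR exact test and limma on RPKM also called 0. At an unadjusted p under 0.05 there was 1, Nt5e, where 7.46% of all genes passed. In CPM the groups did not overlap for Nt5e, P2ry2 and P2ry6, all lower in the labelled knockouts. That is 3 of 9, near the 36.2% of all genes whose groups did not overlap in either direction (17.4% lower). The median log2 fold change was -0.20 over the 9 genes and -0.01 over all genes, and 7 of the 9 were negative, against 51.6% of all genes. With 2 libraries a group, the exact permutation test of a single gene cannot go below a two-sided p of 0.333.

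The genes spanned more than 2 orders of magnitude in level. By RPKM, which is scaled to transcript length and so allows genes to be compared, P2rx4 was the highest, between 9.32 and 14.2 RPKM in the 4 libraries. It alone took 43.5% and 33.5% of the summed RPKM of the 10 genes in the labelled knockouts, and 33.4% and 39.0% in the controls. Next came Panx1, Entpd3 and P2ry2, at means over the 4 libraries of 5.60, 4.95 and 3.74 RPKM. The ranges of Panx1 and Entpd3 overlapped, and so did those of Entpd3 and P2ry2. Nt5e and Entpd2 followed at 1.80 and 1.79 RPKM, with overlapping ranges. Adora2b, P2ry6 and P2rx7 lay under 1 RPKM in every library, at means of 0.604, 0.432 and 0.349 RPKM, and each overlapped the next. For P2rx7 this depends on the transcript used. Its other transcripts had means of 0.497, 0.596 and 0.462 RPKM, above P2ry6, and reached up to 1.11 RPKM in labelled knockout replicate 2. Entpd1 was last at 0.0712 RPKM. As a yardstick of background chosen after the values were seen, the 95th percentile of 1101 olfactory receptor genes was 0.09 and 0.155 RPKM in the labelled knockouts and 0.194 and 0.131 RPKM in the controls. In each library 9 of the 10 genes lay above it, and Entpd1 did not.

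**Figure D1:**
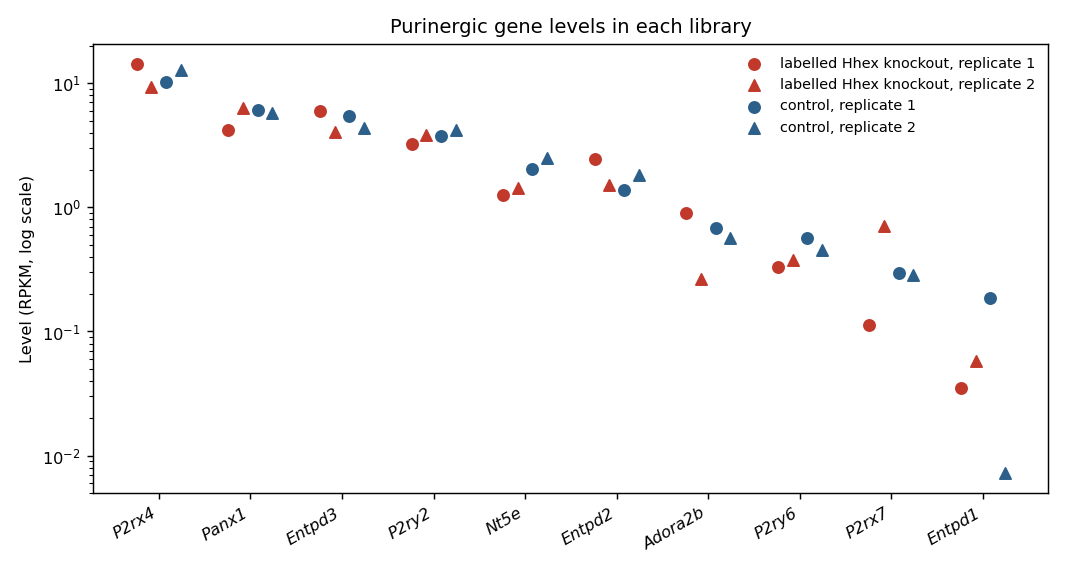
Level of each purinergic gene in each of the 4 libraries, in RPKM on a log scale, with genes ordered by their mean. Red points are the labelled knockouts and blue points the controls. P2rx4 leads at 9.32 to 14.2 RPKM, and Entpd1 trails at 0.0073 to 0.184 RPKM.

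Panx1, the pannexin channel through which cells release ATP, stood at 10.9 and 17.5 CPM in the labelled knockouts and at 18.0 and 15.6 CPM in the controls. Labelled knockout replicate 1 was the low library, and replicate 2 lay within the control range. The log2 fold change was -0.24 (95% interval -0.82 to 0.34, edgeR adjusted p = 0.931). Without labelled knockout replicate 2 it was -0.64, and without replicate 1 it was 0.03, so the lower estimate for Panx1 rests on a single library.

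Of Entpd1, Entpd2 and Entpd3, Entpd3 was the main one in ductal cells. It made up 70.6% and 72.1% of the summed RPKM of Entpd1, Entpd2 and Entpd3 in the labelled knockouts and 77.9% and 70.3% in the controls. Entpd3 stood at 26.01 and 18.5 CPM in the labelled knockouts, against 26.7 and 19.5 CPM in the controls. Each group held a higher and a lower library at nearly the same values, and the log2 fold change was -0.05 (95% interval -0.59 to 0.49, edgeR adjusted p = 0.983). Without labelled knockout replicate 2 it was 0.15, and without replicate 1 it was -0.35.

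Entpd2, whose enzyme prefers ATP over ADP, stood at 6.00 and 3.87 CPM in the labelled knockouts and at 3.75 and 4.62 CPM in the controls. Labelled knockout replicate 1 was the highest library, and the groups overlapped. Its log2 fold change was 0.24 (95% interval -0.47 to 0.95, edgeR adjusted p = 0.951). It was 0.50 without labelled knockout replicate 2 and -0.14 without replicate 1.

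Entpd1, which encodes CD39 of vascular and immune cells, had 7 and 10 counts in the labelled knockouts and 30 and 1 counts in the controls. It did not pass the filter on low counts and was not tested. The counts correspond to 0.188 and 0.323 CPM in the labelled knockouts and to 1.09 and 0.0405 CPM in the controls, with 95% intervals of counting error of 0.737 to 1.56 CPM in control replicate 1 and 0.00103 to 0.226 CPM in control replicate 2. Control replicate 1 was the high library. That library also had the highest summed level of 8 endothelial markers, at 12.5 CPM, against 3.46 and 8.55 CPM in the labelled knockouts and 4.66 CPM in control replicate 2. It had the highest median of the olfactory receptor genes too, at 0.0558 RPKM, against 0.0224 and 0.0462 RPKM in the labelled knockouts and 0.0309 RPKM in control replicate 2. The part of either in the Entpd1 count was not tested. In bulk RNA, fewer cells of a type and less RNA per cell cannot be told apart.

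Nt5e, the CD73 gene that makes adenosine from AMP, had the smallest p of the 10 genes. It had 214 and 211 counts in the labelled knockouts and 282 and 286 counts in the controls, from libraries of unequal depth. This came to 5.73 and 6.81 CPM in the labelled knockouts, against 10.3 and 11.6 CPM in the controls. Both labelled knockouts lay below both controls, and each pair was close within itself. The mean was 6.27 ± 0.759 CPM in the labelled knockouts and 10.9 ± 0.934 CPM in the controls (SD, n = 2 each). Expression was 0.573 times that of the controls (95% interval 0.41 to 0.801), a log2 fold change of -0.80 ± 0.21 (SE). The unadjusted p was 0.00559, and the edgeR adjusted p of 0.321 missed the threshold over all transcripts.

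Without labelled knockout replicate 2 the Nt5e log2 fold change was -0.95, and without labelled knockout replicate 1 it was -0.71. Without control replicate 1 or 2 it was -0.89 and -0.68. In each of these fits a single library stands for its group and is assumed to vary like the other group. The direction held under all 18 alternatives. With both labelled knockouts below both controls, these fits of the same libraries could hardly reverse it, so this is not separate evidence. The ratio of Nt5e RPKM to the summed RPKM of Entpd1, Entpd2 and Entpd3 was 0.15 and 0.256 in the labelled knockouts and 0.289 and 0.402 in the controls.

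The 250 bases before the start of Nt5e are shown because it is the gene whose libraries separated by group with the smallest p. The sequences are from RefSeq, build GRCm38.p6, which is not the mm9 build named for the files. Capitals mark matches, on either strand, to 4 motifs: the homeodomain core ATTAA, the hypoxia response core ACGTG, the cAMP response core TGACG and the GC box GGGCGG. The window lies at chr9:88327359-88327608 on the plus strand.
Nt5e: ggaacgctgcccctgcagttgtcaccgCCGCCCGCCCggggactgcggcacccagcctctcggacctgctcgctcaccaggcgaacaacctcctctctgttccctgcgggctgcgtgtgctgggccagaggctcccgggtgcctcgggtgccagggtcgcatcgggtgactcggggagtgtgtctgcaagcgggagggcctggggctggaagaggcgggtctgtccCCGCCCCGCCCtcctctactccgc
The capitals in Nt5e are 4 GC boxes in 2 overlapping pairs, and none of the other 3 motifs is present. The window holds 21 CpG, against a median of 6 over all 32851 windows. A GC box is found in 32.7% of all such windows, TGACG in 17.8% and ACGTG in 16.6%. ATTAA, the core that homeodomain factors such as Hhex bind, is in 24.9% of all windows and in none of the 12 windows of the 9 genes that have one in the table (P2ry6 has none). A match is a description of letters and not a site, and no match says nothing of binding elsewhere.

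**Figure D2:**
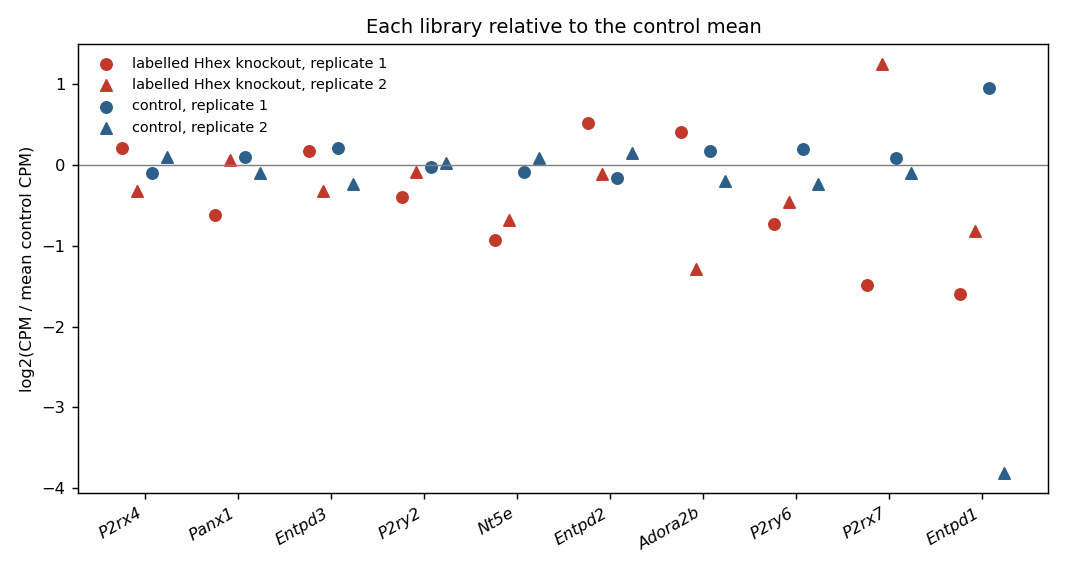
Each library relative to the control mean, as log2 of CPM over the mean control CPM, with genes ordered by level. For Nt5e both red points (labelled knockouts) lie below both blue points (controls). For P2rx4, P2rx7 and Adora2b the labelled knockouts lie on opposite sides of the controls.

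P2rx4, an ATP-gated channel of the plasma membrane and lysosomes, was the highest of the 10 genes and differed little between groups. It stood at 35.7 and 24.7 CPM in the labelled knockouts and at 28.9 and 33.0 CPM in the controls. The labelled knockouts were the highest and the lowest library. Its log2 fold change was -0.04 (95% interval -0.52 to 0.45, edgeR adjusted p = 0.99). It was 0.19 without labelled knockout replicate 2 and -0.35 without replicate 1.

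P2rx7, the ATP-gated channel that activates the NLRP3 inflammasome in macrophages, varied more between the labelled knockouts than any of the other 9 genes. It had 26 and 143 counts in the labelled knockouts, or 0.696 and 4.61 CPM, and 57 and 45 counts in the controls, or 2.08 and 1.82 CPM. The labelled knockouts thus lay on both sides of the controls and differed by 6.62-fold, where the median over all genes was 1.23-fold between those libraries. Their counting intervals of 0.455 to 1.02 and 3.89 to 5.43 CPM did not overlap. The log2 fold change of 0.43 had an interval (95%) from -1.35 to 2.22 and an edgeR adjusted p of 0.964. Without labelled knockout replicate 2 it was -1.5, and without replicate 1 it was 1.21.

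All 4 P2rx7 transcripts had their highest CPM in labelled knockout replicate 2 and their lowest in labelled knockout replicate 1. The one with the fewest counts had 3 and 37 in the labelled knockouts and 11 and 8 in the controls. Transcripts of a gene can share reads, so these are not separate measurements. Of 13 listed macrophage marker symbols, 12 were in the tables, and the absent Adgre1 is the newer name of Emr1, which was present. The summed level of the 12 was 129 and 216 CPM in the labelled knockouts and 168 and 150 CPM in the controls. This is the same order of libraries as for P2rx7. Most of that sum was Cd14, which epithelial cells can also express, at 108 and 205 CPM in the labelled knockouts and 151 and 135 CPM in the controls. The lysosomal macrophage gene Cd68, second by level, had the reverse order of libraries, at 16.2 and 3.94 CPM in the labelled knockouts and 7.36 and 10.8 CPM in the controls. The defining macrophage gene Csf1r stood at 0.777 and 1.36 CPM in the labelled knockouts and 1.42 and 0.689 CPM in the controls, and the pan-leukocyte gene Ptprc at 0.295 and 0.516 CPM against 0.802 and 0.405 CPM. The part of such cells in the P2rx7 count was not tested.

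P2rx4 and P2rx7 are next to each other on chromosome 5, with 0 protein-coding genes between them in RefSeq. They differed between the labelled knockouts in opposite directions. The ratio of P2rx4 to P2rx7 in RPKM was 127 and 13.2 in the labelled knockouts and 34.4 and 44.8 in the controls. These ratios are for the P2rx7 transcript used, which had the lowest mean RPKM of its transcripts, and depend on that choice. The 250 bases before each start are shown for this neighbouring pair, marked in the same way, from chr5:122707294-122707543 for P2rx4 and, for the more upstream of 2 starts of P2rx7, from chr5:122643677-122643926, both on the plus strand.
P2rx4: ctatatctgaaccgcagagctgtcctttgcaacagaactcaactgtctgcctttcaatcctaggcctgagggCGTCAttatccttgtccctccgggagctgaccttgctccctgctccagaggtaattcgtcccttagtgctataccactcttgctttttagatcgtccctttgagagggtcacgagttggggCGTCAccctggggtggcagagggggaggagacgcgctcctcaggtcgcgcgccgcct
P2rx7: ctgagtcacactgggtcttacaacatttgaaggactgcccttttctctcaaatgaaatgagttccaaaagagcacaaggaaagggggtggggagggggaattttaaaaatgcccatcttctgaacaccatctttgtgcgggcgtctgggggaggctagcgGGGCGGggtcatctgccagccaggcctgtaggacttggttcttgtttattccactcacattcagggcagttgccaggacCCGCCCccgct
The P2rx4 window holds 2 matches to TGACG, read on the opposite strand, and 13 CpG. The P2rx7 window holds 2 GC boxes and 6 CpG.

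P2ry2, the receptor for ATP and UTP that raises calcium in duct cells, stood at 12.2 and 15.2 CPM in the labelled knockouts and at 15.8 and 16.4 CPM in the controls. In CPM both labelled knockouts lay below both controls, replicate 2 only narrowly. The counting intervals of labelled knockout replicate 2 (13.8 to 16.6 CPM) and control replicate 1 (14.4 to 17.4 CPM) overlapped. In RPKM the groups overlapped, at 3.80 in labelled knockout replicate 2 against 3.73 in control replicate 1. The log2 fold change was -0.23 (95% interval -0.66 to 0.20, edgeR adjusted p = 0.913), and -0.41 without labelled knockout replicate 2. P2ry6, the UDP receptor and the neighbour of P2ry2 on chromosome 7, had 30 counts in each labelled knockout and 42 and 28 in the controls. This came to 0.804 and 0.968 CPM in the labelled knockouts, against 1.53 and 1.14 CPM in the controls. The groups did not overlap, but the counting intervals of labelled knockout replicate 2 (0.653 to 1.38 CPM) and control replicate 2 (0.754 to 1.64 CPM) did. The log2 fold change was -0.59 (95% interval -1.81 to 0.63, edgeR adjusted p = 0.922). Without labelled knockout replicate 2 it was -0.75. In RPKM, P2ry2 exceeded P2ry6 by 9.74-fold and 10.01-fold in the labelled knockouts and by 6.60-fold and 9.22-fold in the controls.

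Adora2b, the low-affinity adenosine receptor that couples to cAMP, had 78 and 20 counts in the labelled knockouts and 49 and 34 in the controls. The levels were 2.09 and 0.645 CPM in the labelled knockouts and 1.79 and 1.38 CPM in the controls. Here labelled knockout replicate 1 was the highest library and replicate 2 the lowest, the reverse of P2rx7, and they differed by 3.24-fold. The log2 fold change was -0.20 (95% interval -1.64 to 1.24, edgeR adjusted p = 0.979). Without labelled knockout replicate 2 it was 0.38, and without replicate 1 it was -1.32.

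**Figure D3:**
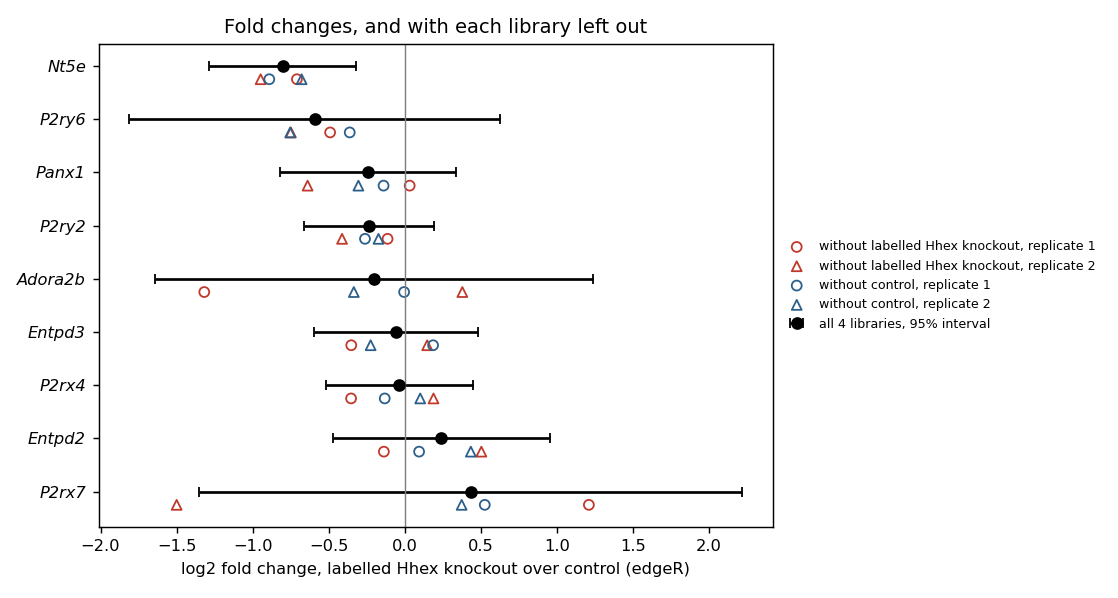
Log2 fold changes of the 9 genes that were tested, labelled Hhex knockout over control. Black points and bars are the edgeR estimates with 95% intervals from all 4 libraries, and open symbols are the estimates with 1 library left out. Nt5e is the gene whose interval (-1.29 to -0.32) excludes 0. With 1 or the other labelled knockout left out, the estimates of Panx1, Entpd2, Entpd3, P2rx4, P2rx7 and Adora2b lie on both sides of 0. They lie farthest apart for P2rx7 and Adora2b.

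A wider list of 69 genes of the pathway, from ATP release to receptor effectors, was read beside the 10. Of them 61 were tested and 0 passed edgeR over all transcripts. At an unadjusted p under 0.05, 7 were higher and 4 lower, against shares of 4.63% and 2.83% of all genes, and the median log2 fold change was -0.01, the same as over all genes. The edgeR exact test called 3 of them, Slc28a3, Gja1 and Adk, where it called 270 of 20949 transcripts. DESeq2 called these and P2rx2 and Cftr, 5 in all, where it called 303 of 28199 transcripts. Adk, Gja1, Casp4, Cftr and Slc28a3 kept their sign in edgeR with 1 or the other labelled knockout left out. This is not particular to them, because a sign can hardly change where the groups do not overlap in CPM. Of the 61 tested genes, 12 were higher and 14 lower without overlap, where 36.2% of all genes did not overlap in either direction. Without control replicate 1 or 2 the log2 fold change was -1.97 and -2.18 for Slc28a3, and 0.90 and 0.82 for Gja1. It was 0.63 and 0.91 for Adk, 1.30 and 2.38 for P2rx2, and -0.97 and -0.87 for Cftr. Each of these fits has a single library for a group.

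Slc28a3, the concentrative nucleoside transporter that takes up adenosine with sodium, had the smallest p in the wider list. It stood at 4.26 and 1.74 CPM in the labelled knockouts and at 14.1 and 11.8 CPM in the controls. Both labelled knockouts were far below both controls, with a log2 fold change of -2.10 ± 0.39 (SE), an edgeR adjusted p of 0.169 and a DESeq2 adjusted p of 3.78e-05. Adk, the kinase that turns intracellular adenosine into AMP, stood at 202 and 209 CPM in the labelled knockouts and at 112 and 133 CPM in the controls, a log2 fold change of 0.75 (edgeR adjusted p = 0.228, DESeq2 adjusted p = 0.00995). The equilibrative transporter gene Slc29a1 stood at 12.2 and 5.58 CPM in the labelled knockouts and 9.95 and 10.4 CPM in the controls, and Slc29a3, of lysosomes, at 5.63 and 8.61 CPM against 5.50 and 6.16 CPM. Pnp, the purine nucleoside phosphorylase gene, stood at 87.4 and 89.1 CPM in the labelled knockouts and 71.0 and 74.1 CPM in the controls.

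The intracellular relatives of the surface NTPDases, Entpd4, Entpd5, Entpd6 and Entpd7, had log2 fold changes between -0.19 and 0.49, and none passed the test. Entpd4, of the Golgi and lysosomes, stood at 59.3 and 81.2 CPM in the labelled knockouts and 49.9 and 52.8 CPM in the controls. Entpd5, of the endoplasmic reticulum, stood at 44.3 and 40.0 CPM in the labelled knockouts and 32.0 and 27.9 CPM in the controls. The edgeR adjusted p was 0.622 for Entpd4 and 0.448 for Entpd5.

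Among other routes of ATP release, the connexin 43 gene Gja1 stood at 23.8 and 26.8 CPM in the labelled knockouts and 14.7 and 13.5 CPM in the controls (log2 fold change 0.84, edgeR adjusted p = 0.182, DESeq2 adjusted p = 0.0218). The connexin 32 gene Gjb1 stood at 0.777 and 0.806 CPM in the labelled knockouts and 0.291 and 0.365 CPM in the controls. Lrrc8a, a subunit of volume-regulated anion channels, was at 50.9 and 51.3 CPM in the labelled knockouts and 43.8 and 47.8 CPM in the controls. Slc17a9, the vesicular nucleotide transporter, was at 0.670 and 0.806 CPM in the labelled knockouts and 1.57 and 1.26 CPM in the controls.

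Of the other nucleotide receptors, P2rx2 and P2ry1 were the most abundant. P2rx2, a slowly desensitising ATP-gated channel, stood at 14.1 and 5.0 CPM in the labelled knockouts and 1.89 and 3.89 CPM in the controls, with a log2 fold change of 1.73 (edgeR adjusted p = 0.454, DESeq2 adjusted p = 0.0199). The fold change was 2.28 (log2) without labelled knockout replicate 2, which lay little above control replicate 2. P2ry1, the ADP receptor, stood at 9.40 and 13.3 CPM in the labelled knockouts and 9.65 and 9.81 CPM in the controls. P2rx5 was at 0.723 and 1.52 CPM in the labelled knockouts and 2.08 and 1.74 CPM in the controls. The other adenosine receptors were low: Adora2a stood at 0.509 and 1.00 CPM in the labelled knockouts and 1.13 and 1.87 CPM in the controls, Adora1 at 0.509 and 2.13 CPM against 1.35 and 1.14 CPM, and Adora3 had at most 12 counts in any library.

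Receptor effectors and ductal ion transporters were mostly abundant, and 0 of the 21 tested were called by edgeR. Gnas, the stimulatory G protein subunit used by A2B, stood at 305 and 290 CPM in the labelled knockouts and 211 and 255 CPM in the controls. Gna11, of the Gq family used by P2Y receptors, stood at 54.8 and 71.5 CPM in the labelled knockouts and 57.2 and 52.9 CPM in the controls. The adenylyl cyclase gene Adcy6 stood at 102.9 and 101.5 CPM in the labelled knockouts and 105 and 113 CPM in the controls. Adcy9, another adenylyl cyclase, and Plcb4, a phospholipase C, had log2 fold changes of 0.55 and 0.52, with edgeR adjusted p-values of 0.483 and 0.505. Itpr3, of the same effector list, went the other way, at 128 and 131 CPM in the labelled knockouts and 168 and 184 CPM in the controls. Its log2 fold change was -0.45 (edgeR adjusted p = 0.507). Of the 14 effector genes, 9 had a log2 fold change above 0 and 5 below.

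The calcium-activated chloride channel gene Ano1 stood at 174 and 291 CPM in the labelled knockouts and 218 and 245 CPM in the controls, and the bicarbonate cotransporter gene Slc4a4 at 79.7 and 136 CPM against 105 and 102 CPM. Cftr, the cAMP-activated chloride channel gene, stood at 13.1 and 22.9 CPM in the labelled knockouts and 33.6 and 35.1 CPM in the controls, with a log2 fold change of -0.93 (edgeR adjusted p = 0.38, DESeq2 adjusted p = 0.0463). Kcnn4, a calcium-activated potassium channel gene, stood at 7.77 and 6.55 CPM in the labelled knockouts and 9.51 and 9.001 CPM in the controls.

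Of the 7 listed inflammasome genes, 6 were tested and 0 were called. Casp4, the caspase gene of the noncanonical inflammasome, stood at 6.54 and 6.42 CPM in the labelled knockouts and 10.3 and 13.3 CPM in the controls (log2 fold change -0.86, edgeR adjusted p = 0.279). Gsdmd, which encodes the pore-forming gasdermin D, stood at 42.8 and 25.5 CPM in the labelled knockouts and 27.2 and 30.8 CPM in the controls. The adaptor gene Pycard stood at 7.93 and 2.39 CPM in the labelled knockouts and 7.43 and 5.07 CPM in the controls. Il18 stood at 1.04 and 3.48 CPM in the labelled knockouts and 1.35 and 1.42 CPM in the controls, an order of libraries close to that of P2rx7. Nlrp3 stayed at or under 0.947 CPM in every library, and Casp1 had at most 4 counts.

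**Figure D4:**
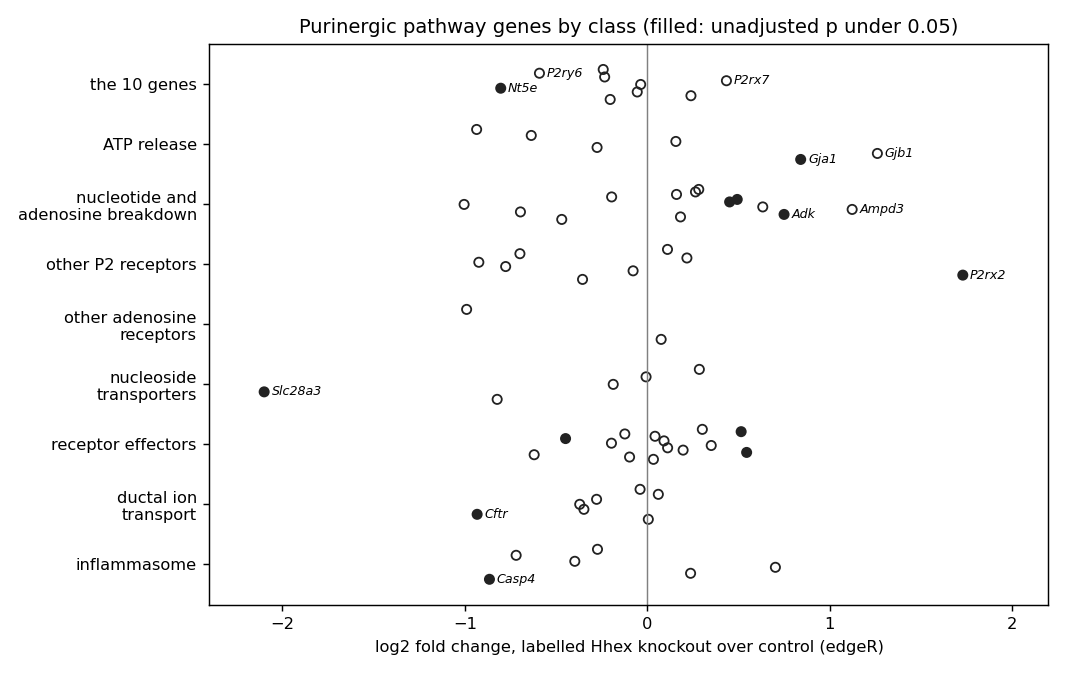
Log2 fold changes, labelled Hhex knockout over control, of the purinergic genes and of the wider pathway list by class. Each point is a tested gene, and filled points have an unadjusted p under 0.05. Slc28a3 at -2.10 and P2rx2 at 1.73 lie farthest from 0, and none of the genes passed the adjusted threshold in edgeR with all 4 libraries.

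Markers of other cell types were low apart from genes that epithelial cells can also express. Summed over 13 fibroblast and stellate genes the level was 50.7 and 61.5 CPM in the labelled knockouts and 40.2 and 43.8 CPM in the controls, most of it Vim and Sparc. Over 9 lymphocyte genes it was 1.80 and 3.97 CPM in the labelled knockouts and 5.28 and 3.04 CPM in the controls. Nt5e is also a marker of mesenchymal cells. Of the 11 fibroblast and stellate genes that were tested, 9 had a log2 fold change below 0, where 51.6% of all genes did. Vim and Postn had one above 0, so the higher sum in the labelled knockouts does not describe most of the list. Vim was higher and Sparc lower in both labelled knockouts, at 39.0 and 47.9 CPM for Vim against 12.3 and 19.9 CPM in the controls. Sparc stood at 4.53 and 3.48 CPM in the labelled knockouts, against 11.99 and 13.1 CPM in the controls. Col1a1 stood at 1.5 and 2.84 CPM in the labelled knockouts and 5.21 and 1.87 CPM in the controls. Their part in the Nt5e level was not tested. Summed levels of 8 acinar, 8 endocrine, 8 glial or neuronal and 4 platelet genes were at most 13.3 CPM in any library.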

How the data were processed

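The authors deposited raw counts and RPKM values, each with 1 line per RefSeq transcript (28644 lines). Per the submitters' processing notes, the authors worked with mm9 and with edgeR (version not stated). How reads were aligned and counted, and whether by strand, is not given in the sources used here. Counts are deposited as whole numbers without normalization. The deposited RPKM values are scaled by the authors per length and by a library scale that is not stated. From the ratio of counts to RPKM, that scale was 1.22 and 1.06 times that of control replicate 1 in the labelled knockouts and 0.832 times in control replicate 2, whereas the count totals were 1.55, 1.21 and 0.99 times, so it is not the total of the deposited counts.

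Counts were fitted with edgeR 4.0.16 in R 4.3.3, knockout minus control: filterByExpr (minimum count 10, minimum total 15), TMM factors, quasi-likelihood F test and Benjamini-Hochberg adjustment over the 20949 transcripts kept, threshold 0.05. The code was tested on simulated counts for these 4 libraries, with the same spread for all transcripts. It called 17% of 100 transcripts changed 2-fold and 86% of 100 changed 4-fold, so most 2-fold changes were missed. It also called 7 unchanged transcripts. CPM uses TMM-scaled totals, and intervals of a single library are exact 95% Poisson intervals of counting error. Reads carried no molecular identifiers. Depth was 25257778 to 39582625 counts per library. Alternatives were other scalings, filters and row choices, DESeq2 1.42.0, the edgeR exact and robust tests, limma-trend 3.58.1 on log2(RPKM + 1) or log2(RPKM + 0.1), and each library left out.

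The 10 genes and all lists were chosen with earlier results of these data known. Named from the wider list were, per class, the 3 genes with the highest mean RPKM and the 2 with the smallest p, and markers by mean RPKM. Hhex and Sox9 were named as checks of the labels. Nlrp3, Casp1, Itpr3, Tm4sf4, Csf1r, Ptprc and Col1a1 were named after their values were seen. Replicate numbers follow accession order.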

Additional observations from a re-analysis of the deposited data

How the results depend on the processing

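With every library kept, 0 of the 10 purinergic genes were called under the 14 alternatives run. Leaving out 1 library gave 0 to 2 (Nt5e without either labelled knockout, and Panx1 without replicate 2). Calls among the wider list, 0 in the fit reported, were 3 with the edgeR exact test, 5 with DESeq2, 1 with limma on log2(RPKM + 1) at a mean RPKM of at least 0.5, and 0 to 11 with 1 library left out. Over all transcripts 37 were called, 27 higher and 10 lower. The count was 5 with library totals, with upper-quartile factors or with counts summed per symbol, 4 with a mean CPM of at least 1 or with limma on log2(RPKM + 1), and 2 with 1 transcript per gene. It was 79 without a filter, 84 with the robust fit, 270 with the exact test, 303 with DESeq2, 56 with limma on log2(RPKM + 0.1), 151 with limma at a mean RPKM of at least 0.5, and 13 to 1735 with 1 library left out. The cause was not tested. The split of higher against lower calls moved with scaling, to 0 higher and 5 lower with library totals.

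Under limma the log2 fold changes of Entpd3 and P2rx4 changed sign, to 0.0117 and 0.0121 with log2(RPKM + 1), at either filter, and to 0.0112 and 0.0113 with log2(RPKM + 0.1). With 1 library left out, the log2 fold change ran from -0.6384 to 0.0329 for Panx1, -0.14 to 0.50 for Entpd2, -0.35 to 0.19 for Entpd3, -0.35 to 0.19 for P2rx4, -1.4995 to 1.21 for P2rx7 and -1.32 to 0.38 for Adora2b. It stayed negative for Nt5e, P2ry2 and P2ry6. These are the genes whose groups did not overlap in CPM, where leaving a library out can hardly change the sign. No paired analysis was possible because the labels give no replicate numbers shared between groups. Under 100 counts, as for P2ry6, Adora2b and Entpd1, the depth does not resolve small differences.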
